A study of Felis catus with 8 samples.

Results

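The enzymes that make, use and exchange glutamate were followed in the liver of cats fed with and without its sodium salt, monosodium glutamate (MSG). A list of 9 genes was set: the glutamine synthetase GLUL, the glutamate dehydrogenase GLUD1, the glutaminase GLS2, the aspartate transaminases GOT1 and GOT2, the alanine transaminases GPT and GPT2, the asparagine synthetase ASNS and the ornithine transaminase OAT. Members were the probe sets that the array's annotation assigns to exactly 1 gene, that gene being on the list. This gave 91 of 224320 single-gene probe sets, for 8 of the 9 genes. GLS2 was not analysed here. Of the 91 probe sets, 54 passed a filter on dim values (mean log2 intensity over the 8 arrays above 2.43, the median of all probe sets), and their mean per gene gave 8 of the 17910 genes tested.

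Liver RNA of male cats (Felis catus) was studied at 9 months of age on 8 arrays, 2 per diet. The combined diet held 8.6% trans fat, 24% high-fructose corn syrup (HFCS) and 1.125% MSG. The trans-fat/HFCS diet held the same trans fat and HFCS without MSG. The MSG diet was chow with 1.125% MSG, and the control diet was the chow alone. Each dam was put on its diet 3 weeks before mating and kept on it until nursing ended, and the sons were weaned onto that diet, so the diets differed from before birth. Arrays of 1 diet carry different cat numbers and are called biological replicates in the labels. Litters and any pooling of RNA are not stated there, so p-values measure the spread between arrays. Cat RNA was read on a human array (Affymetrix HuGene 1.0 ST), whose probes can miss a cat transcript that differs in sequence. For this reason levels are compared between diets and never between genes.

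Glutamate stands at a crossing of liver nitrogen metabolism. Transaminases move amino groups between amino acids and 2-oxoglutarate, which makes glutamate, and glutamate dehydrogenase releases the amino group as ammonia in the mitochondrion. In rodent and human liver, glutaminase and urea synthesis lie mainly in hepatocytes near the portal vein, while glutamine synthetase is confined to a few layers of hepatocytes around the central vein, where it captures the remaining ammonia as glutamine.

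Median intensity per array was 5.25 to 5.28, and precision is limited by having 8 arrays. Across genes, Pearson's r between both arrays of a diet was 0.946 to 0.968. The 14 measured of 15 listed hepatocyte markers read log2 5.91 or more on every array, and 0 were called in any comparison. With trans fat and HFCS on average 12 of the 14 had a negative change (median -0.13, against 0.02 for all genes). With MSG on average 8 of the 14 did (median -0.03, against 0.00). The trans-fat/HFCS arrays stood apart in 18 skeletal muscle genes, all of them measured. The summed log2 level of these genes was 95.3 and 95.7 on the trans-fat/HFCS arrays and between 63.8 and 65.7 on the other 6 arrays, and the dimmest of them read 3.65 and 3.34 on the trans-fat/HFCS arrays and at most 2.31 on the others. On the trans-fat/HFCS diet 15 of the 18 rose against control, where 1.46% of all genes rose. Among the 15 were the myosin heavy chain MYH1 (log2 3.11, SE 0.16) and the actin ACTA1 (2.86, SE 0.17), with limma adjusted p of 0.00010 and 0.00014. The filter used the mean over all 8 arrays, so a probe set high only on the trans-fat/HFCS arrays could pass it. MYH1 read 2.26 and 2.31 on control, below the limit of 2.43, and 5.48 and 5.32 on the trans-fat/HFCS arrays. Its being measured therefore does not show expression on control. ACTA1 read 4.71 and 4.74 on control, above that limit. Muscle is known to express several of the enzymes described here, among them GOT1 and GLUL. Of 9 macrophage genes CD68 rose on the trans-fat/HFCS diet relative to control (1.31, SE 0.20, adjusted p = 0.015 in limma), as did 1.46% of all genes. CD68 also rose on average with trans fat and HFCS (0.78, SE 0.14, adjusted p = 0.015), as did 4.44% of all genes. The gene value of CD68 lay between log2 2.93 and 4.51. The summed log2 level of the 9 was 43.7 to 45.2 on the 4 arrays with trans fat and HFCS, against 43.1 to 43.4 on the other 4. In that average comparison 3 of the 9 had a negative change, and their median was 0.16, against 0.02 for all genes. Of 9 stellate cell genes PDGFRB fell on average with trans fat and HFCS (-0.60, SE 0.13, adjusted p = 0.028), as did 3.22% of all genes. The summed log2 level of those 9 was 38.7 and 38.1 on the combined diet, 40.8 and 41.3 on the trans-fat/HFCS diet, and 41.2 to 42.1 on the other 4 arrays. No gene was called among 8 endothelial, 6 cholangiocyte, 8 lymphocyte and 3 measured of 6 erythroid markers. The part of these cell types in the results below was not tested.

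No member passed the test in any of the 4 MSG comparisons. MSG was compared on chow (MSG against control diet), on the trans-fat/HFCS base (combined against trans-fat/HFCS diet), as the average of both, and as the second minus the first. Another 3 comparisons set trans fat and HFCS with MSG (combined against MSG diet), without MSG (trans-fat/HFCS against control diet) and as the average of both. The test was limma on all genes, with Benjamini-Hochberg adjustment and a threshold of 0.05. On chow 0.296% of the 17910 genes were called, on the trans-fat/HFCS base 0.179%, for the average of both 0.329%, and for the difference between the base diets 0.151%. At an unadjusted p under 0.05 the members numbered 2 of 8 on chow (GLUL and OAT, with 7.64% of all genes), 0 on the trans-fat/HFCS base (8.98%), 1 for the average (GLUL, 7.91%) and 1 for the difference between base diets (OAT, 9.07%). The median member had a log2 change of 0.00 on chow and -0.04 on the trans-fat/HFCS base, and the median of all genes was 0.00 in both. Arrays did not overlap in 3 members that were lower (GLUL, GPT and OAT) and 1 that was higher (GOT1) with MSG on chow, where 19.7% of all genes were lower and 19.8% higher in this way. On the trans-fat/HFCS base 3 were lower (GLUL, GLUD1 and GPT; 18.4% of all genes) and 1 was higher (GOT2; 18.7%). On average over both bases 2 were lower (GLUL and GPT; 1.59%) and 0 higher (1.09%).

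**Figure D1:**
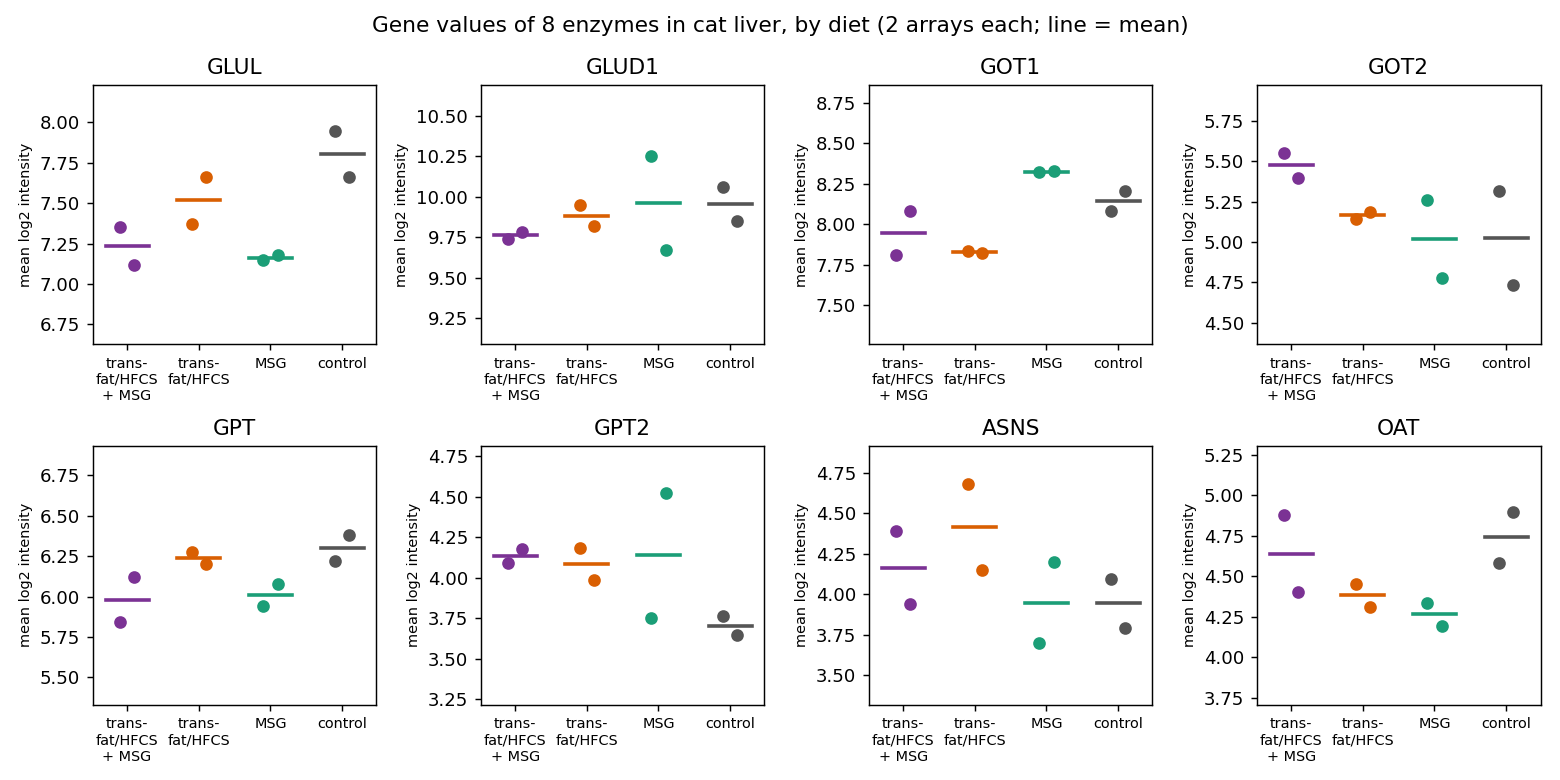
Mean log2 intensity (y axis) of each of the 8 enzymes on the 8 arrays, with diets on the x axis (points are arrays, lines are the means of 2). Every panel spans the same range of 1.6 on the log2 scale. GLUL was at 7.15 and 7.18 on the MSG diet, against 7.95 and 7.66 on control.

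GLUL, glutamine synthetase, makes glutamine from glutamate and ammonia. Its gene value was 7.15 and 7.18 on the MSG diet, against 7.95 and 7.66 on control. It was 7.35 and 7.12 on the combined diet, against 7.37 and 7.66 on the trans-fat/HFCS diet. All 4 arrays of MSG-fed cats therefore lay below all 4 arrays of the other cats, as in 1.59% of all genes. The closest 2, at 7.35 and 7.37, nearly met. The log2 difference was -0.64 (SE 0.19) on chow, a level 1.56-fold lower (adjusted p = 0.38 in limma). For the combined against the trans-fat/HFCS diet it was -0.28 (SE 0.19, adjusted p = 0.71), and the average was -0.46 (SE 0.13, adjusted p = 0.39). In bulk tissue, fewer cells of a type and less RNA per cell cannot be told apart. On chow 0 of 18 muscle genes were called (7 at a negative change), and the list's median on the 2 MSG arrays exceeded the control mean by 0.00 and 0.01. On the trans-fat/HFCS base 13 of 18 muscle genes fell with MSG (0.134% of all genes), and on average over both bases 9 of 18 did (0.285%). The part of muscle RNA in the GLUL differences was not tested in any of these comparisons, on chow included.

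The array holds 14 probe sets for GLUL, of which 9 passed the filter, 6 of them bright, with a mean log2 above 6. That limit was chosen after the values were seen. The identifier of bright probe set 8154952 lies outside the run of the other GLUL identifiers, and which locus it reads was not tested. It read 10.98 and 10.77 on the MSG diet, against 11.57 and 11.52 on control. Probe set 7922693, the brightest, read 11.52 and 11.07 on the MSG diet, against 11.94 and 11.81 on control. Probe set 7922692 read 10.41 and 10.64 on the MSG diet, against 11.49 and 11.38 on control. Probe set 7922694 showed the widest gap among the bright ones, with 7.83 and 8.19 on the MSG diet and 9.07 and 9.47 on control. In all 6 bright probe sets both MSG arrays lay below both control arrays, where 21.1% of all bright probe sets did so. Their log2 differences ran from -1.26 to -0.58.

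The 3 dim GLUL probe sets went different ways on chow. Probe set 7922690 read 2.53 and 2.21 on the MSG diet, against 4.77 and 4.73 on control. Probe set 7922697 read 3.99 and 4.55 on the MSG diet, against 3.00 and 2.65 on control, so it was higher where the bright ones were lower. Single GLUL probe sets had an adjusted p of 0.36 or more in the limma fit over 111624 probe sets. Probe sets of 1 gene share their RNA and are not replicates of the diet.

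**Figure D2:**
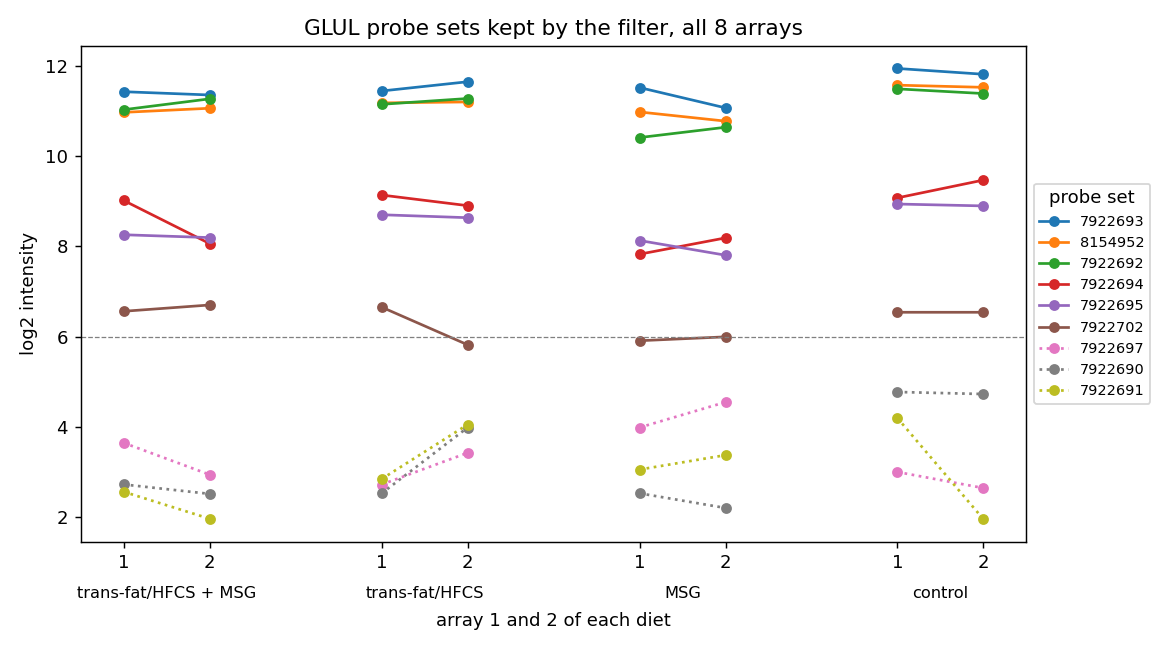
Log2 intensity (y axis) of the 9 GLUL probe sets kept by the filter, on both arrays of each diet (x axis); solid lines mark the 6 bright probe sets, dotted lines the 3 dim ones, and the dashed line marks log2 6. In all 6 bright probe sets both MSG arrays lay below both control arrays, and the dim ones differed in direction.

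Of 20 other settings run for MSG on chow, GLUL passed in 3. The settings on bright probe sets, with and without 8154952, overlap and were added after the values were seen. With 16 added to each intensity before taking log2, which damps dim probe sets, GLUL fell on chow (log2 -0.58, adjusted p = 0.016 in limma, with 0.765% of genes called) and on average (-0.37, adjusted p = 0.023, with 0.832% called). With bright probe sets only, GLUL stood at 9.13 and 9.08 on the MSG diet, against 9.92 and 9.94 on control, a log2 difference of -0.83 (SE 0.12, adjusted p = 0.024 in limma, with 1.57% of 8751 genes called). Its average over both base diets was -0.49 (SE 0.08, adjusted p = 0.048, with 1.63% called). Without probe set 8154952 GLUL passed on chow (-0.86, SE 0.12, adjusted p = 0.024) but not on average (-0.50, SE 0.09, adjusted p = 0.052). The bright mean was 9.54 and 9.44 on the combined diet, against 9.71 and 9.58 on the trans-fat/HFCS diet, a difference of -0.15 (SE 0.12, adjusted p = 0.62, with 0.503% called). The 2 effects differed by 0.67 (SE 0.17), and that difference did not pass (adjusted p = 0.15, with 0.971% called).

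Set by base diet, the bright mean of GLUL had a log2 difference of 0.39 (SE 0.12, adjusted p = 0.081 in limma) for the combined diet against the MSG diet. It was -0.29 (SE 0.12, adjusted p = 0.18) for trans-fat/HFCS against control. The lowest of the 4 diets was thus MSG on chow and the highest was chow alone, with both trans-fat/HFCS diets between them. The arrays of these 2 middle diets were 0.04 apart at their closest, at 9.54 and 9.58.

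Likeness to GLUL over the 8 arrays was measured by Pearson's r of log2 values among 4377 other genes with at least 3 kept probe sets, a mean log2 of at least 4 and an SD of at least 0.2. The closest was APBB2, an adaptor that binds the amyloid precursor protein (r = 0.970). Next came SLC16A10, a carrier of aromatic amino acids (r = 0.967), and ANKFN1 (r = 0.936). SLC16A10 stood at 6.32 and 6.28 on the MSG diet, against 6.79 and 6.69 on control, and at 6.33 and 6.30 on the combined diet, against 6.45 and 6.68 on the trans-fat/HFCS diet. These values share arrays and normalization with GLUL and were picked as the highest of many.

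GPT is the cytosolic alanine transaminase that clinical chemistry measures as ALT. It was the other member whose MSG-fed arrays all lay below the rest in the gene value, as in 1.59% of all genes. It read 5.94 and 6.08 on the MSG diet, against 6.22 and 6.38 on control. It read 5.84 and 6.12 on the combined diet, against 6.27 and 6.20 on the trans-fat/HFCS diet. The log2 difference was -0.29 (SE 0.17) on chow, -0.26 (SE 0.17) on the trans-fat/HFCS base and -0.27 (SE 0.12) on average, with an adjusted p = 0.63 for the average in limma. The 2 base diets gave nearly the same value, and their difference was 0.03 (SE 0.24). All 6 bright GPT probe sets had a negative change on chow, between -0.40 and -0.17. In 4 of them the arrays did not overlap, where 21.1% of all bright probe sets were lower in this way. On the trans-fat/HFCS base 4 of the 6 were negative, between -0.67 and 0.22. On bright probe sets alone the average was -0.19 (SE 0.11, adjusted p = 0.60) and the arrays overlapped, since combined array 2 read 7.88, against 7.78 on trans-fat/HFCS array 1 and 7.85 and 7.81 on control.

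GPT2, the mitochondrial alanine transaminase, had 1 bright probe set of 14. Its gene value was 3.75 and 4.53 on the MSG diet, against 3.76 and 3.64 on control, so the 2 MSG arrays differed by more than the diets. On the combined diet it was 4.09 and 4.18, against 4.18 and 3.99 on the trans-fat/HFCS diet. The log2 difference was 0.44 (SE 0.24) on chow and 0.05 (SE 0.24) on the trans-fat/HFCS base. The bright probe set differed by 0.00 on chow.

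GOT1, the cytosolic aspartate transaminase and part of the malate-aspartate shuttle that carries reducing equivalents into mitochondria, was the most fully read member, with 8 bright probe sets of 11. It stood at 8.32 and 8.33 on the MSG diet, against 8.08 and 8.21 on control. It stood at 7.81 and 8.08 on the combined diet, against 7.83 and 7.82 on the trans-fat/HFCS diet. On chow both MSG arrays were above both controls, as in 19.8% of all genes, and on the trans-fat/HFCS base the arrays overlapped. The log2 differences were 0.18 (SE 0.17) and 0.12 (SE 0.17). None of the 8 bright probe sets had a negative change on chow, but the largest was 0.35.

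GOT1 was lower with trans fat and HFCS on both levels of MSG, by log2 -0.38 (SE 0.17) for the combined against the MSG diet and -0.32 (SE 0.17) for trans-fat/HFCS against control. The average was -0.35 (SE 0.12) with an adjusted p = 0.11 in limma, where 7.66% of genes were called. All 8 bright GOT1 probe sets had a negative change on average, from -0.84 to -0.06, with a median of -0.20. In 2 of them the 4 arrays did not overlap the other 4 (8.72% of all bright probe sets). Probe set 7935635, the brightest, was the tightest case, with 10.82 and 10.78 on the combined diet and 10.85 and 10.72 on the trans-fat/HFCS diet, against 11.20 and 11.33 on the MSG diet and 11.23 and 11.20 on control. Its average change of -0.45 (SE 0.17) did not pass among single probe sets (adjusted p = 0.27). In probe set 7935632, the one with the change of -0.84, 1 array stood apart. It read 8.92 on trans-fat/HFCS array 2 and between 10.25 and 11.08 on the other 7. The gene value of GOT1 passed in 3 of 18 other settings. With all probe sets kept it was -0.31 (adjusted p = 0.045 in limma, with 6.22% of genes called). With 16 added to intensities it was -0.28 (adjusted p = 0.015, with 13.6% called). A variance trend on intensity gave -0.35 (adjusted p = 0.026, with 9.21% called). The range over the 18 was -0.45 to -0.23, with adjusted p up to 0.46. On bright probe sets it was -0.28 (SE 0.08, adjusted p = 0.062), and with single arrays left out it passed in 0 of 8 fits (adjusted p between 0.090 and 0.28).

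**Figure D3:**
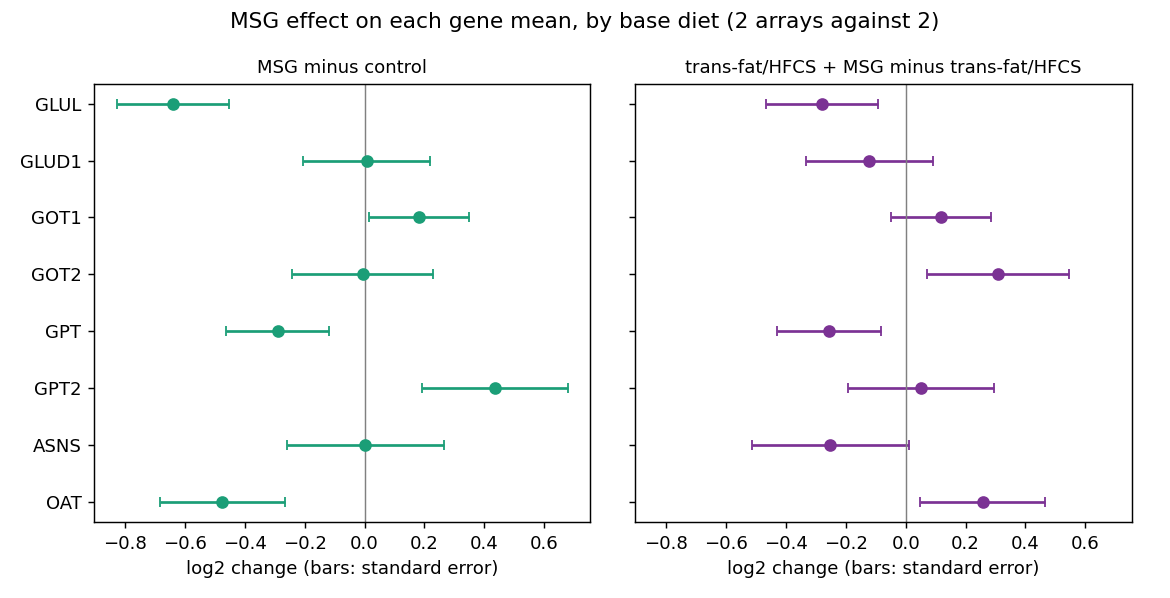
Log2 change with MSG (x axis, bars are standard errors from limma) of the 8 gene values (y axis), on chow in the left panel and on the trans-fat/HFCS base in the right one. GLUL and GPT lie left of 0 in both panels, and OAT lies left of 0 on chow and right of it on the trans-fat/HFCS base.

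GOT2, the mitochondrial aspartate transaminase, had 3 bright probe sets of 11. It read 5.26 and 4.78 on the MSG diet, against 5.31 and 4.73 on control, a difference of -0.01 (SE 0.24) that is small beside the gap between arrays of 1 diet. It read 5.55 and 5.40 on the combined diet, against 5.14 and 5.19 on the trans-fat/HFCS diet. Here GOT2 differed by 0.31 (SE 0.24, adjusted p = 0.75 in limma) with no overlap of arrays, as in 18.7% of all genes. On its 3 bright probe sets the difference was -0.08 (SE 0.22) and the arrays overlapped. Muscle genes fell in the same comparison, and their part was not tested.

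GLUD1, glutamate dehydrogenase, rested on a single bright probe set, since the other of its 2 was below the filter. It read 10.25 and 9.67 on the MSG diet, against 10.06 and 9.85 on control. It read 9.74 and 9.78 on the combined diet, against 9.95 and 9.82 on the trans-fat/HFCS diet. The mean difference was 0.01 (SE 0.21) on chow and -0.12 (SE 0.21) on the trans-fat/HFCS base. The 95% interval of the average ran from -0.40 to 0.28, so likeness between the diets is not shown.

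OAT, which turns ornithine and 2-oxoglutarate into glutamate and glutamate semialdehyde, was the member whose MSG effects on the 2 base diets were farthest apart in the gene values. On bright probe sets the distance was -0.71 for ASNS, 0.67 for GLUL and 0.32 for OAT, and none of these passed. It read 4.34 and 4.19 on the MSG diet, against 4.58 and 4.90 on control, a difference of -0.48 (SE 0.21, adjusted p = 0.64 in limma). It read 4.88 and 4.40 on the combined diet, against 4.45 and 4.31 on the trans-fat/HFCS diet, a difference of 0.26 (SE 0.21, adjusted p = 0.77). The 2 effects differed by 0.73 (SE 0.29), which did not pass (adjusted p = 0.52). Of 10 probe sets 4 were kept and 1 was bright, and the bright one had smaller differences, at -0.22 on chow and 0.11 on the trans-fat/HFCS base.

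ASNS, which makes asparagine from aspartate with glutamine as nitrogen donor and is a target of the amino acid stress factor ATF4, showed no call for MSG. Its gene value was 3.70 and 4.20 on the MSG diet, against 4.09 and 3.79 on control. It was 4.39 and 3.94 on the combined diet, against 4.68 and 4.15 on the trans-fat/HFCS diet. Of 15 ASNS probe sets 10 were below the filter, 4 of the 5 kept ones were dim, and the gene value is mostly made of those.

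The 1 bright ASNS probe set, 8141163, rose with trans fat and HFCS. It read 9.02 and 8.26 on the combined diet, against 7.15 and 7.29 on the MSG diet. It read 8.95 and 9.32 on the trans-fat/HFCS diet, against 7.09 and 6.93 on control. All 4 arrays with trans fat and HFCS lay above all 4 without, by 0.96 at the closest, as in 9.46% of bright probe sets. The average log2 change was 1.77 (SE 0.24), a level 3.41-fold higher, with an adjusted p = 0.019 in limma over all probe sets, of which 2.45% were called. Leaving out any 1 of the 6 arrays of the trans-fat/HFCS, MSG and control diets ended the call (adjusted p between 0.054 and 0.085, log2 change between 1.68 and 1.87). The difference was 1.42 (SE 0.34, adjusted p = 0.16, with 0.486% of probe sets called) with MSG and 2.12 (SE 0.34, adjusted p = 0.053, with 0.927% called) without it. No other of the 54 kept member probe sets was called in any of the 7 comparisons. For MSG, 0.12% of probe sets were called on chow, 0.0968% on the trans-fat/HFCS base, 0.151% on average and 0.0618% for the difference between bases. With MSG the difference in this probe set was 0.21 (SE 0.34) on chow and -0.49 (SE 0.34) on the trans-fat/HFCS base, and neither was called.

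**Figure D4:**
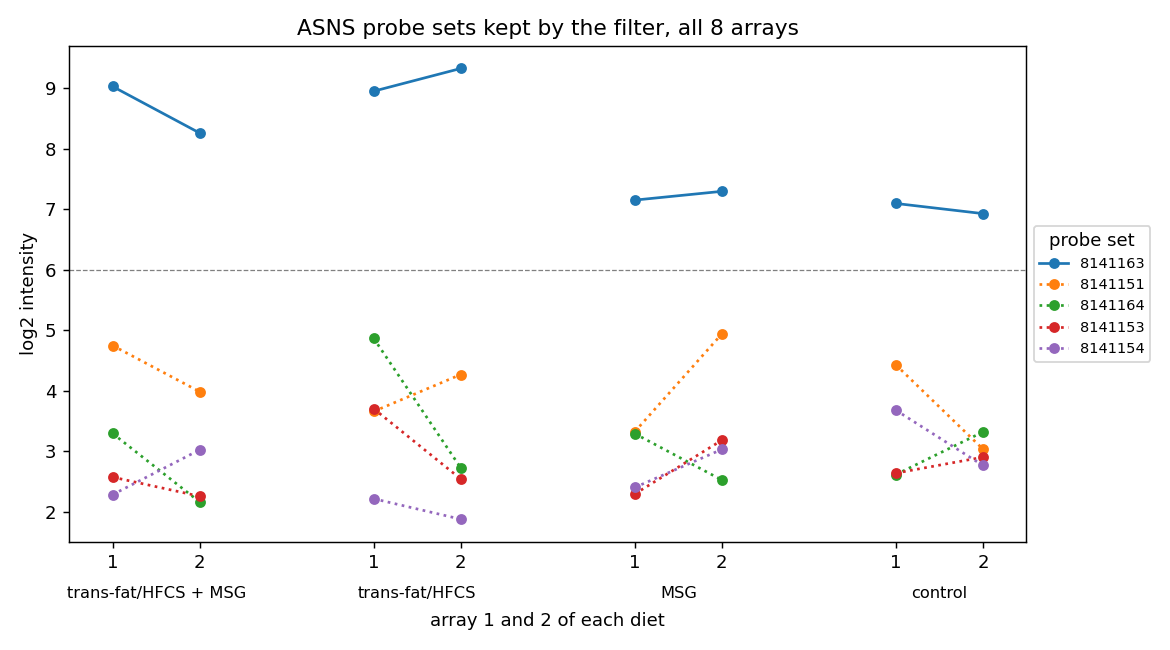
Log2 intensity (y axis) of the 5 ASNS probe sets kept by the filter, on both arrays of each diet (x axis); the solid line marks the bright probe set 8141163, dotted lines the 4 dim ones, and the dashed line marks log2 6. The bright probe set lay between 8.26 and 9.32 on the 4 arrays with trans fat and HFCS, and between 6.93 and 7.29 on the other 4.

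The other 4 kept ASNS probe sets lay between 1.88 and 4.94, and their average changes ran from -0.62 to 0.32. Over all 5 the gene value differed by 0.34 (SE 0.19, adjusted p = 0.29 in limma), against 1.77 with the brightest probe set alone (adjusted p = 0.0042, with 12.2% of genes called). With bright probe sets only, where ASNS is this 1 probe set, the gene passed on average (22.5% of genes called), with MSG (12.6%) and without it (10.7%). The high level was read on the combined-diet arrays, where the median of the 18 muscle genes stood 0.12 and -0.04 from the control mean. It was also read on the trans-fat/HFCS arrays, where that median stood 1.50 and 1.65 above the control mean. The part of muscle RNA in the ASNS change was not tested. For the members other than ASNS and GOT1, the average difference with trans fat and HFCS was between -0.14 for GLUD1 and 0.30 for GOT2, and no gene value passed in any of the 3 trans-fat/HFCS comparisons. With MSG 1.66% of all genes were called and without MSG 2.48%. At an unadjusted p under 0.05, GOT1 was the 1 member with MSG (17.3% of all genes) and on average (24.5%), and 0 members were without MSG (18.3%). Arrays did not overlap in 2 members that were higher (24.8% of all genes) and 1 lower (22.1%) with MSG, and in 2 higher (26.7%) and 3 lower (24.9%) without it. On average there were 0 higher (8.29%) and 0 lower (6.72%).

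**Figure D5:**
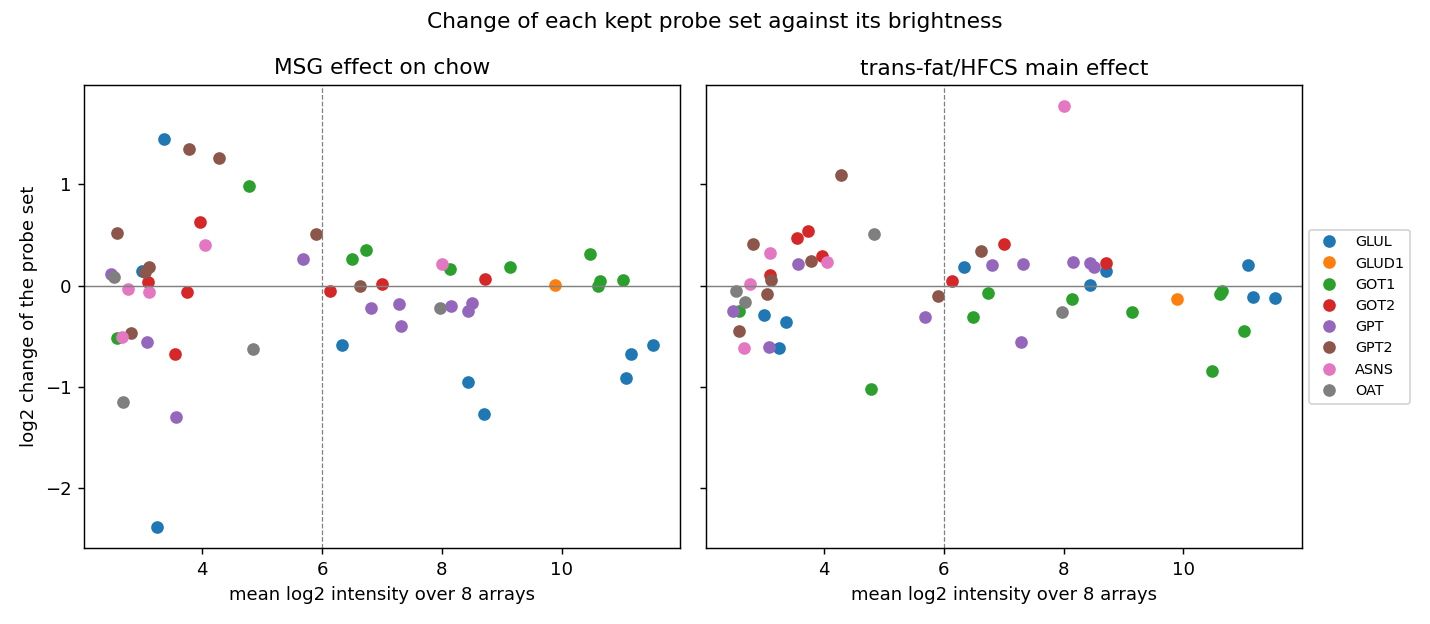
Log2 change (y axis) of each of the 54 kept member probe sets against its mean log2 intensity over the 8 arrays (x axis), for MSG on chow in the left panel and for trans fat and HFCS on average in the right one; the dashed line marks log2 6. On the bright side the 6 GLUL probe sets lie between -1.26 and -0.58 in the left panel, and ASNS stands alone at 1.77 in the right panel.

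Bright and dim probe sets differed in precision. Over all probe sets, 2 arrays of 1 diet differed by a median of 0.23 on the log2 scale where the probe set was bright. The median was 0.45 where it was kept but dim. Below the filter, at a mean log2 of 2.43 or less, it was 0.17, which is not read here as higher precision. In 27 of the 54 kept member probe sets the mean was above log2 6. These included 8 of GOT1, 6 each of GLUL and GPT, 3 of GOT2 and 1 each of GLUD1, GPT2, ASNS and OAT. For GOT2, GPT2, ASNS and OAT the dim probe sets outnumber the bright ones in the gene value.

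Other enzymes of glutamate and glutamine showed no call with MSG either. Of 23 measured genes 0 passed in any MSG comparison, with a median log2 change of -0.05 on average over both base diets. With trans fat and HFCS 2 rose and 1 fell on average, where 4.44% of all genes rose and 3.22% fell. These were the glutamate decarboxylases GAD1 (log2 0.88, SE 0.15, adjusted p = 0.010 in limma) and GAD2 (0.83, SE 0.15, adjusted p = 0.015), which turn glutamate into GABA, and GCLC, the catalytic subunit that joins glutamate to cysteine for glutathione (-0.52, SE 0.12, adjusted p = 0.031). GAD1 stood at 6.55 and 6.06 on the combined diet, against 4.96 and 5.20 on the MSG diet, and at 5.64 and 5.87 on the trans-fat/HFCS diet, against 5.24 and 5.18 on control. GAD2 stood at 4.31 and 4.16 on the combined diet, against 3.69 and 3.54 on the MSG diet. On the trans-fat/HFCS diet GAD2 stood at 4.88 and 5.24, against 3.78 and 4.25 on control. Its log2 difference was 1.04 without MSG (adjusted p = 0.040 in limma) and 0.62 with MSG (adjusted p = 0.18). For GAD1 it was 0.54 without MSG (adjusted p = 0.21) and 1.22 with MSG (adjusted p = 0.025). GCLC stood at 6.23 and 6.27 on the combined diet, against 6.87 and 6.62 on the MSG diet, and at 5.83 and 5.86 on the trans-fat/HFCS diet, against 6.34 and 6.43 on control. Among the 11 other transaminases measured, 0 passed with MSG, and 1 fell with trans fat and HFCS on average. This was AGXT, the peroxisomal alanine-glyoxylate transaminase (-0.52, SE 0.12, adjusted p = 0.034 in limma), at 6.52 and 6.56 on the combined diet, against 6.91 and 6.78 on the MSG diet, and at 5.95 and 6.24 on the trans-fat/HFCS diet, against 6.84 and 6.82 on control.

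None of the malate-aspartate shuttle genes listed beside the members (7 measured) was called in any of the 7 comparisons. Neither was any listed gene of the amino acid response (20 measured). In the shuttle, SLC25A13, the aspartate-glutamate carrier of liver, differed by 0.20 (SE 0.11) with MSG on average, and SLC25A12, its counterpart in muscle and brain, by -0.21 (SE 0.12). In the amino acid response, the transcription factor ATF5 differed by 0.50 (SE 0.16, adjusted p = 0.42 in limma) with MSG on chow. DDIT3, another one, differed by 0.48 (SE 0.23, adjusted p = 0.70) and rests on 1 dim probe set, between log2 2.90 and 3.85. The list's median was 0.00 for trans fat and HFCS on average, where the bright ASNS probe set rose. The part of the amino acid response in that rise was not tested.

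Genes of the 2 liver zones named above were read beside the members. Around the central vein, 8 of 10 genes had a negative change with MSG on chow, with a median of -0.24, and 2 of 10 had one for the combined against the trans-fat/HFCS diet (median 0.20). None was called in an MSG comparison. The ammonia transporter RHBG rose with trans fat and HFCS on average (0.50, SE 0.12, adjusted p = 0.035 in limma) and differed by -0.29 (SE 0.16) with MSG on chow. RNF43, a brake on Wnt signalling, fell on the trans-fat/HFCS diet relative to control (-0.95, SE 0.18, adjusted p = 0.031), as did 1.02% of all genes. Near the portal vein, 4 of 11 genes had a negative change with MSG on chow, with a median of 0.09. None of those was called with MSG. On average with trans fat and HFCS, where 7.66% of all genes were called, HAL, which breaks down histidine (0.60, SE 0.13, adjusted p = 0.030), rose and the glucose-6-phosphatase G6PC (-0.56, SE 0.14, adjusted p = 0.039) fell. Medians of all genes lay between 0.00 and 0.02 in these comparisons. The comparisons on the trans-fat/HFCS diet share arrays with each other and with the muscle signal, whose part in them was not tested.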

How the data were processed

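The authors deposited intensities per probe set on a linear scale for 8 arrays. Per the submitters' processing notes the authors used GCRMA, Partek and hg19; which step each served, and any filter, is not given in the sources used here. The values (lowest 2.22, highest 22966) were log2 transformed. Of 257101 probe sets 224320 have 1 gene in the platform annotation, 10159 several and 22622 none. Single-gene probe sets above the median of all (111624) were averaged per gene, giving 17910 genes. A model of 4 diets was fitted using limma 3.58.1 (R 4.3.3; lmFit and eBayes, 4 residual degrees of freedom), with contrasts for each comparison and Benjamini-Hochberg adjustment over all genes. The same fit was run on single probe sets. The steps were tested on simulated data. Symbols are those of the annotation. No genome was used. Alternatives were the filter, the summary per gene, quantile normalization, a pseudocount, an intensity trend, fewer arrays, a replicate block and a model without interaction. All 8 measured members were named. From each other pathway list, called genes were named (at most 6), or the 2 of smallest p over the MSG comparisons. From cell type marker lists, called genes were named, with 2 muscle genes as examples. The members and lists were chosen with earlier results of these data known.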

Additional observations from a re-analysis of the deposited data

Results flagged for a closer look

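In 4 member probe sets both arrays moved one way with MSG on chow and both the opposite way on the trans-fat/HFCS base, and limma's test of the difference between the 2 effects passed in none of them. These are 7.41% of the 54 kept member probe sets, against 7.58% of all kept probe sets. GOT1 probe set 7935629 was at 0.16 on chow and -0.21 on the trans-fat/HFCS base (difference -0.38, adjusted p = 0.84). GOT1 probe set 7935631 was at 0.18 and -0.28 (difference -0.46, adjusted p = 0.81). GPT probe set 8148915, which is dim, was at 0.12 and -0.82 (difference -0.94, adjusted p = 0.69). GPT2 probe set 7995367, also dim, was at -0.47 and 0.38 (difference 0.85, adjusted p = 0.76). Diets had 2 arrays each, too few to single out an array within a diet.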

How the results depend on the processing

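As reported, 0 members passed in the 7 comparisons of gene values, and 1 member probe set (ASNS 8141163, trans fat and HFCS on average) passed among single probe sets. Gene values gave 1 call for GOT1 (trans fat and HFCS on average) without the filter (6.22% of all genes called) or with an intensity trend (9.21%), and 1 for ASNS in each of the 3 trans-fat/HFCS comparisons with the brightest probe set (5.51% of genes with MSG, 6.25% without and 12.2% on average). With 16 added there was 1 for GLUL with MSG on chow, 1 for GLUL with MSG on average, and 2 (GOT1 and ASNS) for trans fat and HFCS on average (0.765%, 0.832% and 13.6% of genes). With bright probe sets only, chosen after seeing the data, there was 1 for GLUL in each of those MSG comparisons and 1 for ASNS in each of the 3 trans-fat/HFCS comparisons. Among single probe sets, the trans-fat/HFCS diet against control gave 1 (ASNS) with the 75th percentile filter, with 16 added or with bright probe sets, and 2 (ASNS and GOT1) with a trend. The combined against the MSG diet gave 1 (ASNS) with bright probe sets and 3 (ASNS, GOT1 and GLUL) with a trend. Trans fat and HFCS on average gave 2 (ASNS and GOT1) with 16 added, a trend or bright probe sets. A trend also gave 2 of GLUL for MSG on chow and 1 of GLUL (8154952) for MSG on average. The share of all probe sets called in these settings is not given here, so these calls have no background beside them. Among gene values, a trend and 16 added raised the share called for trans fat and HFCS on average from 7.66% to 9.21% and 13.6%. Leaving out 1 array in turn gave between 0 and 1 for trans fat and HFCS on average. The ASNS probe set lost its call without any 1 array of the trans-fat/HFCS, MSG or control diet (log2 change between 1.58 and 1.96 over all 8, adjusted p between 0.029 and 0.085), and a lone array is assumed to vary like the others. GLUL on chow lay between -0.78 and -0.50 in those fits, with adjusted p of 0.37 to 0.96, and between -1.10 and -0.45 over all 20 settings run for it, among them bright probe sets without 8154952 (-0.86), added after seeing the data. Of 56 values (8 members in 7 comparisons) 19 kept their sign in all settings run and 37 did not, among them the 3 of ASNS with trans fat and HFCS. With the replicate number as a block 0 members passed in the 7 comparisons (GLUL with MSG on chow -0.64, adjusted p = 0.49) and the ASNS probe set kept its call (adjusted p = 0.046). Numbers did not pair the arrays, since the differences between arrays 1 and 2 of 2 diets correlated with r between -0.06 and 0.04. Over all genes, the 53 calls for MSG on chow ranged from 13 to 137, the 32 on the trans-fat/HFCS base from 7 to 73, the 59 on average from 1 to 149 and the 27 for the difference from 5 to 85. The 444 calls without MSG ranged from 62 to 1120, the 297 with MSG from 54 to 1106 and the 1372 on average from 443 to 2434.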
